A study of Mus musculus with 12 samples.

Results

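The oxidative phosphorylation genes of sorted mouse heart macrophages were described across 4 times around a cardiac cryoinjury. Members were taken by symbol: the nuclear genes of complex I (Nduf genes, with the assembly factors named Ndufaf), complex II (Sdha to Sdhd), complex III (Uqcr genes and Cyc1), complex IV (Cox4 to Cox8 families) and the ATP synthase (Atp5 genes), and the mitochondrially encoded mt-Nd, mt-Co, mt-Atp and mt-Cytb genes, without pseudogenes. The rule found 100 of the 14460 genes in the table, 87 nuclear and 13 mitochondrially encoded, and 99 passed the filter on low values, against 12879 of all genes. The member that did not pass was Cox6b2, a testis-type isoform of a complex IV subunit, with a signal of 0.0958 to 1.36 over the 12 libraries.

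Later groups were set against earlier ones. Hearts were uninfarcted (day 0) or taken 3, 7 and 30 days after part of the wall was killed by freezing (cryoinjury), with 3 libraries per group. The mice were 2-3 months old and all carried Cx3cr1 GFP/+, an allele in which GFP stands in place of 1 copy of the fractalkine receptor gene, so the controls lack that copy too and GFP marks cells in which the Cx3cr1 promoter is active. GFP+ cells of days 0, 7 and 30 were Ly6clow/CX3CR1high and those of day 3 were Ly6chigh/CX3CR1low, so in every comparison with day 3 the time and the sorting gate cannot be told apart. The labels call the 3 libraries of a group independent biological replicates and do not say how many animals each one holds.

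Oxidative phosphorylation moves electrons from NADH and succinate through complexes I to IV to oxygen and uses the proton gradient this builds to drive the ATP synthase, complex V. Complexes I, III, IV and V are built from subunits of both genomes: the mitochondrial DNA encodes a few membrane-embedded core subunits, which are transcribed inside the organelle as long polycistronic RNAs, and the nuclear genome encodes the remaining subunits, all of complex II and the assembly factors. In macrophages this pathway is known for its tie to activation state, with inflammatory activation shifting cells toward glycolysis and alternative activation relying more on respiration.

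Values are the deposited normalised read count, called signal, and a change is a log2 fold change of signal + 1 with its standard error, which pools the spread of all 12 libraries. A gene passed at an adjusted p under 0.05 in limma, with Benjamini-Hochberg adjustment over the 12879 tested genes. Depth was 5828904 to 13199576 reads per library, and 3 reads, the most that a count of 0 allows, were worth a signal of 0.190 to 0.543, for counting error only. Of 8 macrophage markers, 8 were in the table, with a summed signal of 14778 to 16289 at day 0, 7529 to 10785 at day 3, 13997 to 19327 at day 7 and 12123 to 12597 at day 30. Lyz2 made up most of this sum and single markers differed: at day 3 against day 0, Cd68 (911 to 1106 against 362 to 409), Itgam (1153 to 1301 against 406 to 531) and Fcgr1 (490.3 to 722 against 84.5 to 108) had higher values, and Lyz2 (4004 to 7034 against 11575 to 12414), Csf1r (495 to 613 against 1455 to 1849) and Cx3cr1, whose product was part of the gate (33.8 to 44.0 against 145 to 157), lower ones. Fewer cells of a type and less RNA per cell cannot be told apart in bulk libraries. Library 1 of day 0 and library 2 of day 7 stood furthest apart from the others of their groups, with a chi-square over genes of 61.3 to 86.8 per gene in their pairs. Library 1 of day 3 stood apart too, with 24.9 and 33.8 against 5.98 for the other day 3 pair. The day 30 libraries were closely alike: chi-square per gene was 2.21 to 2.98 between their pairs. Results that rest on these libraries are given with and without them, and for day 30 also with its libraries averaged and counted as 1 sample.

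Per length, the mitochondrially encoded transcripts stood far above the nuclear ones. Their median was 1190 signal per kb of exon over the 12 libraries, from 301 for mt-Nd4l to 8105 for mt-Co1, the catalytic subunit of cytochrome c oxidase. The nuclear median was 17.7 per kb, from 0.774 for Cox6b2 to 148 for Cox6a1, followed by Cox7a2l at 107. Among the nuclear classes the median was 31.5 per kb for complex IV, 27.1 for the ATP synthase, 23.4 for complex II, 20.3 for complex III, 11.4 for complex I subunits and 2.03 for complex I assembly factors. The exon length joins all annotated transcripts of a gene, so these levels are lower for genes with long minor isoforms.

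The 2 genomes followed different courses over time. The summed signal of the 87 nuclear members was 3599, 3724 and 3621 at day 0, 3548, 4063 and 4107 at day 3, 4128, 4883 and 4663 at day 7, and 2690, 2652 and 2650 at day 30. In this scaled signal, all 3 day 7 libraries lay above, and all 3 day 30 libraries below, those of every other day. As shares of all reads, before scaling, the nuclear members took 0.300% to 0.392% at day 0 and 0.368% to 0.383% at day 3. They took 0.387% to 0.438% at day 7 and 0.317% to 0.324% at day 30, so day 0 overlapped each later day. The summed signal of the 13 mitochondrially encoded members was 24446, 47905 and 45649 at day 0, 11466, 16196 and 14220 at day 3, 20299, 19365 and 24128 at day 7, and 23395, 22759 and 23994 at day 30. Here day 3 was lowest, and the first day 0 library lay just above the range of days 7 and 30, while the other two day 0 libraries were far above it. The ratio of the mitochondrial to the nuclear sum was 6.79, 12.9 and 12.6 at day 0, 3.23 to 3.99 at day 3, 3.97 to 5.17 at day 7 and 8.58 to 9.05 at day 30.

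**Figure D1:**
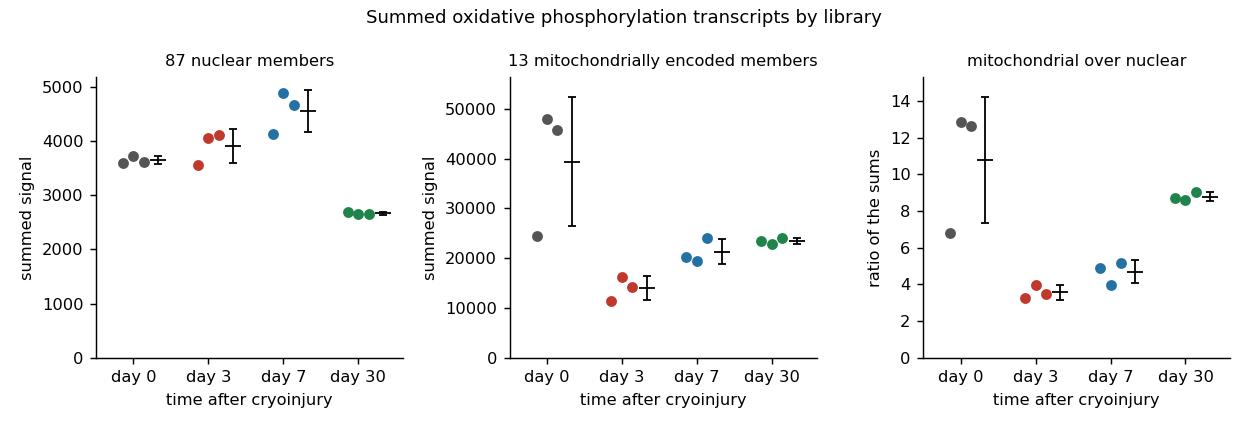
Summed signal of the nuclear members, of the mitochondrially encoded members and their ratio, 1 point per library with the mean and SD of 3 beside it, by day after cryoinjury. The nuclear sum peaks at day 7 (4128 to 4883) and is lowest at day 30 (2650 to 2690), while the mitochondrial sum is lowest at day 3 (11466 to 16196).

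All 13 mitochondrially encoded subunits were lower in day 3 Ly6chigh cells than in day 0 cells. Their median log2 change was -1.41 and the groups did not overlap for any of the 13. In comparison, 22.1% of all tested genes passed as lower and 27.5% had groups apart in that direction. The 7 complex I subunits had a median of -1.69, mt-Cytb of complex III stood at -1.55, the 3 complex IV subunits had a median of -1.37 and the 2 ATP synthase subunits of -1.27. The size of the fall differed within complexes. mt-Nd3, a small membrane subunit of complex I, had a signal of 41.9, 41.6 and 31.8 at day 3, against 134, 269 and 302 at day 0, a change of -2.51 ± 0.26 (limma adjusted p = 1.82e-06). mt-Co3, the core subunit of complex IV whose gene precedes mt-Nd3 on the mitochondrial DNA with a tRNA gene between them, had 564, 749 and 671 at day 3, against 1724, 3956 and 4312 at day 0 (-2.23 ± 0.30, limma adjusted p = 1.88e-05). These were the largest falls of the 13. mt-Nd5 fell least, with 841, 1011 and 909 at day 3, against 1367, 2536 and 2222 at day 0 (-1.10 ± 0.26, limma adjusted p = 0.00275). mt-Co1, the most abundant, had 6104, 8861 and 8098 at day 3, against 13122, 25089 and 23042 at day 0 (-1.37 ± 0.29, limma adjusted p = 0.00134).

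This fall was as large without both libraries that stood furthest apart, when 13 of 13 again passed and the median was -1.74. Without library 1 of day 3, 13 passed and the median was -1.29. Under the 27 alternatives run, 12 of the 13 kept their call in each one; mt-Nd6 did not pass without the second day 0 library, when 12 remained. Cardiomyocytes, which are rich in mitochondria, were followed by 14 markers, of which 13 were in the table. Their summed signal was 12.4 to 18.3 at day 3, with Myl3 and Myl7 listed at 0 in every day 3 library, and 88.2, 259 and 413 at day 0, where the library with the lowest mitochondrial sum also had the lowest marker sum. That library was lowest for other cell types as well: endothelium (6 of 6 markers in the table) summed to 15.05 against 182 and 127 in the other day 0 libraries, T and NK cells (6 of 7) to 23.8 against 168 and 117, mural cells (7 of 7) to 45.4 against 143 and 118, and fibroblasts (7 of 7) to 39.5 against 110.3 and 118. At day 3 against day 0, T and NK cell sums were 2.13 to 5.75 against 23.8 to 168, mural cell sums 22.2 to 30.7 against 45.4 to 143, endothelial sums 101.4 to 146 against 15.05 to 182, and fibroblast sums 285 to 382 against 39.5 to 118. Neutrophil markers (2 of 7) summed to 12.4 to 67.7 against 1.85 to 35.5. A few genes carried some of these sums. Kdr made up the largest part of the endothelial sum at day 3 (60.4 to 93.3, against 0.924 to 37.2 at day 0), and the other endothelial markers overlapped. Among fibroblast markers Col1a1 (57.9 to 87.2 against 1.32 to 6.88), Col1a2, Col3a1 and Postn were higher at day 3. Dcn (18.5 to 24.5 against 23.2 to 62.8), Lum and Pdgfra overlapped between the days. The part of these cell types in the mitochondrial values was not tested. The table gives no strand setting, and mt-Atp8 with mt-Atp6, mt-Nd4l with mt-Nd4, and mt-Nd5 with mt-Nd6 on the opposite strand (11742 to 13565 and 13552 to 14070 on the mitochondrial DNA, GRCm38) overlap by some bases, so reads in the overlaps can be counted for either gene. Nuclear copies of mitochondrial DNA can share reads with these genes as well.

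At day 7 the mitochondrially encoded subunits lay between day 3 and day 0. Against day 0, 9 of 13 were lower (median -0.86), with 10.2% of all tested genes passing as lower. The 7 complex I subunits, mt-Cytb and mt-Co2 passed, and mt-Co1, mt-Co3, mt-Atp6 and mt-Atp8 did not (-0.83, -0.73, -0.67 and -0.57). The count was 4 without the second or without the third day 0 library, 13 without both libraries that stood furthest apart, 3 when the compared groups were fitted alone and 5 with trends on GC content and length removed. mt-Nd2 had 338, 232 and 334 at day 7, against 449, 847 and 788 at day 0 (-1.17 ± 0.22, limma adjusted p = 0.00179) and passed in each alternative run. Against day 3, 7 of 13 were higher at day 7 (median 0.65), with 23.3% of all tested genes passing as higher. mt-Nd3 rose most, with 93.3, 165 and 124 at day 7, against 41.9, 41.6 and 31.8 at day 3 (1.68 ± 0.26, limma adjusted p = 0.000125), followed by mt-Co3, with 1319, 2089.9 and 2329 at day 7, against 564, 749 and 671 at day 3 (limma adjusted p = 0.0008), and mt-Nd1 (1.11 ± 0.24). These 3 and mt-Nd2 passed in every alternative run. The count was 4 without the third day 3 library, 12 without both libraries that stood furthest apart, and 11 with the GC and length trends removed.

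mt-Nd6, 1 gene on the minus strand against 12 on the plus strand in the annotation, had scattered values at day 7. It had 188, 53.8 and 94.5 at day 7 and 106, 131 and 119.5 at day 3, so the groups overlapped and the change was -0.26 ± 0.32, which did not pass. Its sign rested on the second day 7 library: the change was 0.17 without it, and -0.72 with a call without the first. Its signal as a share of that of mt-Nd5 was 13.7%, 8.34% and 8.78% in the day 7 libraries and 12.6% to 13.1% at day 3.

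At day 30 few mitochondrially encoded subunits passed. Against day 0, 2 of 13 were lower, mt-Co3 (-1.12 ± 0.30, limma adjusted p = 0.0359) and mt-Nd3 (-1.05 ± 0.26, limma adjusted p = 0.0293), with 2.73% of all tested genes passing as lower and 6.18% in either direction. The median of the 13 was -0.55. The count was 10 without the first day 0 library, 13 without both libraries that stood furthest apart, 0 by limma without the second or the third day 0 library or without any 1 day 30 library, when 2 to 4 had an unadjusted p under 0.05, and 1 without the third day 3 library. It was 4 by DESeq2, 3 by edgeR and 5 with the GC and length trends removed, and 0 by limma with day 30 counted as 1 sample, when 2 had an unadjusted p under 0.05. Against day 7, 4 complex I subunits passed as higher at day 30, mt-Nd6 (0.85 ± 0.32), mt-Nd4 (0.80 ± 0.24), mt-Nd5 (0.73 ± 0.26) and mt-Nd2 (0.69 ± 0.22), with 19.7% of all tested genes passing as higher and 39.6% in either direction. mt-Nd6 passed narrowly (limma adjusted p = 0.0489) and kept its call in 4 of 27 alternatives, losing it in edgeR, in DESeq2, with either other pseudocount and with no filter on low values. Its adjusted p ran from 0.00156 to 0.329 over the alternatives. mt-Nd4, mt-Nd2 and mt-Nd5 kept theirs in 23, 22 and 20. The second day 7 library had the lowest value of all 4. Without it none of the 13 passed in limma and 2 had an unadjusted p under 0.05; none passed without the third day 30 library, where 4 had one, 1 without the first and 2 without the second, and none with day 30 as 1 sample, where 0 had an unadjusted p under 0.05. With the GC and length trends removed, 1 passed, as lower.

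**Figure D2:**
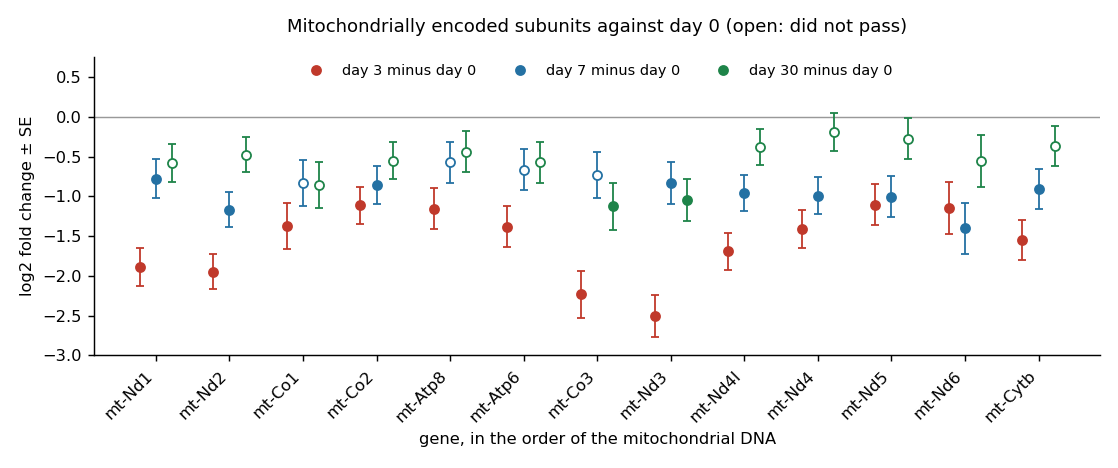
Log2 fold change of the 13 mitochondrially encoded genes at days 3, 7 and 30 against day 0, with standard errors, in the order of the genes on the mitochondrial DNA; filled points passed. Day 3 changes run from -1.10 to -2.51 and all passed, and mt-Co3 and mt-Nd3 stand lowest.

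At day 3 a few nuclear subunits rose and fewer fell, with a median of the nuclear genes near 0. Of 86, 12 were higher and 3 lower in day 3 Ly6chigh cells than in day 0 cells, against 22.1% higher and 22.1% lower among all tested genes, and their median log2 change was 0.10. Complex IV held 6 of the rises and 2 of the falls. Cox5a, a subunit on the matrix side of complex IV, had 73.7, 84.3 and 74.4 at day 3, against 41.8, 44.9 and 42.4 at day 0 (0.83 ± 0.13, limma adjusted p = 0.000101), with no overlap. Cox7b (0.69 ± 0.19), Cox5b (0.57 ± 0.17), Cox7c (0.56 ± 0.17), Cox8a (0.47 ± 0.17) and Cox7a2 (0.46 ± 0.18) also passed. Among complex I accessory subunits Ndufs4, which is needed for a stable complex and is mutated in Leigh syndrome in humans, rose to 42.1, 45.3 and 43.5 at day 3, against 24.4, 27.3 and 21.2 at day 0 (0.83 ± 0.21, limma adjusted p = 0.00563), and Ndufa1 by 0.61 ± 0.21. The remaining rises were those of the ATP synthase subunits Atp5f1 (0.66 ± 0.22), Atp5l (0.64 ± 0.21) and Atp5k (0.55 ± 0.17) and of the Rieske iron-sulfur protein Uqcrfs1 of complex III (0.58 ± 0.17). No complex II subunit and no complex I assembly factor passed.

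Cox7a2l, also called SCAF1, helps to join complexes III and IV into supercomplexes, and it went the other way from its relative Cox7a2. The rise of Cox7a2 kept its call in only 15 of the 27 alternatives. Cox7a2l had 89.5, 106 and 90.5 at day 3, against 193, 175 and 177 at day 0 (-0.92 ± 0.12, limma adjusted p = 2.02e-05), and the groups were far apart. Ndufb11, an accessory subunit of the membrane arm of complex I, had 19.4, 21.8 and 27.0 at day 3, against 33.9, 48.4 and 40.0 at day 0 (-0.81 ± 0.20, limma adjusted p = 0.00371). The other fall was that of Cox6a2, the heart and skeletal muscle isoform of subunit 6a, which was near the counting floor with 0.132 to 0.575 at day 3, against 0.660 to 2.90 at day 0 (-1.14 ± 0.34), and which did not pass without the second or the third day 0 library or without the third day 3 library. Cox5a, Cox7a2l and Ndufb11 passed in the same direction in all 27 alternatives run.

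Which other genes passed at day 3 depended on the scaling, although no named gene changed sign past the threshold. With library totals taken without mitochondrially encoded genes, Gm26924 and Lars2, which take different shares of the libraries, the median of all tested genes moved to -0.28 and 1 nuclear gene passed as higher and 22 as lower, with a nuclear median of -0.18. Quantile normalisation gave 3 higher and 10 lower, with a nuclear median of -0.04, and median centring 15 and 3. The total was 7 without the third day 3 library, 9 without the third day 0 library, 23 without the second day 7 library and 24 without both libraries that stood furthest apart.

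At day 7 several of these genes lay on the other side of day 3. The comparisons with day 3 and with day 0 share libraries, so their values are given side by side only. Of the 86 nuclear genes 21 were higher and 6 lower at day 7 than at day 3, with 23.3% and 23.5% among all tested genes, and their median was 0.26. Cox7a2l had 246, 241 and 234 at day 7, against 89.5, 106 and 90.5 at day 3 (1.33 ± 0.12, limma adjusted p = 9.2e-07). Ndufb11 had 39.7, 66.2 and 48.2 at day 7, against 19.4, 21.8 and 27.0 at day 3 (1.12 ± 0.20, limma adjusted p = 0.000341), and Cox4i1, the ubiquitous isoform of subunit 4, rose by 0.91 ± 0.20. In the opposite direction, Ndufs4 had 21.2, 13.9 and 30.1 at day 7, against 42.1, 45.3 and 43.5 at day 3 (-1.04 ± 0.21, limma adjusted p = 0.00116), and Cox7b fell by 0.74 ± 0.19. The small complex III subunits Uqcr11 (0.85 ± 0.18) and Uqcr10 (0.82 ± 0.20) and the ATP synthase subunit Atp5e (0.58 ± 0.16) were higher as well. Each of these 8 passed in every alternative run. Cox6a2 and Atp5s, at low levels, passed in each of the 26 alternatives that tested them.

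The number of calls was less firm than these genes. It was 13 without the first day 3 library, which stood apart, and 16 without the third, 11 when the compared groups were fitted alone and 15 with day 30 as 1 sample. Higher and lower calls were 40 and 2 with the library totals without mitochondrially encoded genes, Gm26924 and Lars2, where the median of all tested genes moved to 0.22, 31 and 2 after quantile normalisation, and 12 and 8 after median centring.

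Against day 0, 17 of the 86 nuclear genes were higher at day 7 and 0 lower by limma, with 11.4% higher and 10.2% lower among all tested genes. At an unadjusted p under 0.05 the counts were 34 and 0, and edgeR and DESeq2 also called 0 lower. Their median was 0.35, and 77 of 86 had a positive change, against 6210 of 12879 genes. The rises were spread over 4 of the 5 complexes, with 4 of 9 in complex III, 4 of 14 in complex IV, 3 of 15 in the ATP synthase and 5 of 36 among complex I subunits, and 0 of 4 in complex II. Cox8a, the ubiquitous isoform of the smallest complex IV subunit, had 74.5, 89.9 and 75.4 at day 7, against 40.5, 43.2 and 39.5 at day 0 (0.94 ± 0.17, limma adjusted p = 0.00137). Cox5a had 62.5, 72.0 and 70.8 at day 7, against 41.8, 44.9 and 42.4 at day 0 (0.66 ± 0.13, limma adjusted p = 0.00254). Neither overlapped between the groups, and these 2 passed in all 27 alternatives run.

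Further rises at day 7 were those of the complex I subunits Ndufv3 (0.66 ± 0.15), Ndufa11 (0.63 ± 0.20) and Ndufb2 (0.63 ± 0.19), of the complex III subunits Uqcr10 (0.61 ± 0.20) and Uqcrq (0.60 ± 0.18), of the ATP synthase subunits Atp5l (0.79 ± 0.21), Atp5d (0.67 ± 0.22) and Atp5e (0.56 ± 0.16). Cox4i1 (0.64 ± 0.20), Cox7a2l (0.41 ± 0.12) and Atp5sl, a complex I assembly factor also called Dmac2 (0.85 ± 0.21), rose as well. Of the 17, 4 passed without each library in turn (Cox5a, Cox8a, Ndufv3 and Atp5sl). The count was 7 without the first and 7 without the third day 0 library. It was 8 without the second day 7 library, 29 without the first day 7 library, 8, 9 and 8 without the first, the second and the third day 30 library. It was 8 without both libraries that stood furthest apart, 9 with the library totals without mitochondrially encoded genes, Gm26924 and Lars2, 5 with day 30 as 1 sample and 2 when the groups were fitted alone. The second day 7 library had the highest nuclear sum of its group, the highest fibroblast marker sum (2184, against 774 and 556 in the other two) and the highest cardiomyocyte marker sum (220, against 87.5 and 113), and their part in the counts was not tested.

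Of the 5 comparisons, day 30 against day 7 had the most calls among the nuclear genes, and they were found in every complex. Of 86, 63 were lower and 0 higher at day 30 than at day 7 by limma, with 19.9% lower and 19.7% higher among all tested genes. edgeR and DESeq2 also called 0 higher, and 1 was higher at an unadjusted p under 0.05. The nuclear median was -0.79 against 0.01 for all tested genes. The groups did not overlap, with day 30 lower, for 67 of 86, against 27.6% of all tested genes. Lower calls were made for 30 of 36 complex I subunits (median -0.85), 3 of 4 of complex II (-0.64), 7 of 9 of complex III (-0.77), 12 of 14 of complex IV (-1.04) and 9 of 15 of the ATP synthase (-0.77). The 8 complex I assembly factors stood apart in this description, with 2 lower, Ndufaf3 (-0.85 ± 0.23) and Atp5sl (-0.69 ± 0.21), and a median of -0.09. They also had the lowest median signal per kb of the nuclear classes (2.03), and adding 1 to the signal understates changes of low genes. Whether they differ from the subunits was not tested. Within complex I, 6 of 7 core subunits and 24 of 29 accessory subunits passed.

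**Figure D3:**
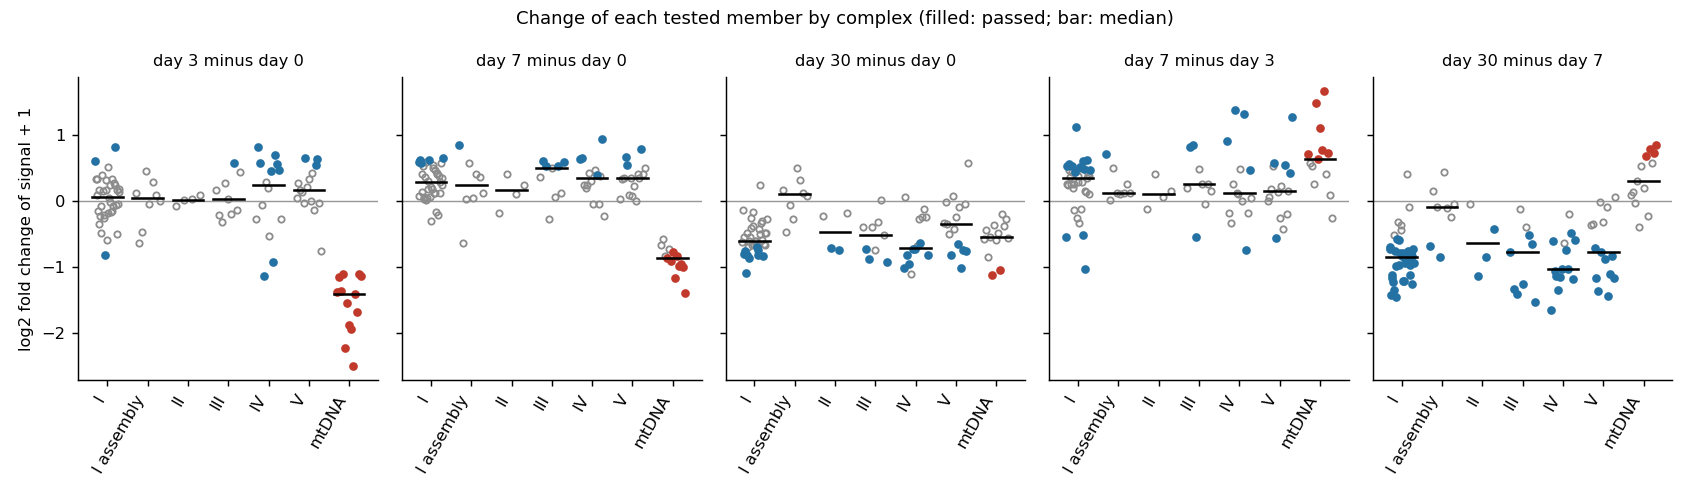
Log2 fold change of every tested member in 5 comparisons, by nuclear class (complexes I to IV, V for the ATP synthase) and for the mitochondrially encoded genes (mtDNA); filled points passed in limma and bars are medians. At day 30 against day 7 the medians of complexes I to V lie between -0.64 and -1.04 while that of the mitochondrially encoded genes is 0.31.

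Cox4i1 had the largest fall, with 67.9, 63.7 and 69.9 at day 30, against 149.9, 276 and 235 at day 7 (-1.65 ± 0.20, limma adjusted p = 6.25e-05). Uqcrq, a small complex III subunit next to cytochrome b, had 15.2, 12.6 and 15.6 at day 30, against 37.5, 49.5 and 44.6 at day 7 (-1.53 ± 0.18, limma adjusted p = 4.07e-05). Ndufa8, an accessory subunit of complex I on the side of the intermembrane space, had 6.86, 4.95 and 6.91 at day 30, against 19.7, 20.9 and 15.9 at day 7 (-1.46 ± 0.22, limma adjusted p = 0.000228). None of the 3 overlapped between the groups. Atp5j2, subunit f of the membrane part of the ATP synthase, had 15.8, 14.3 and 17.1 at day 30, against 41.5, 49.7 and 41.8 at day 7 (-1.44 ± 0.18, limma adjusted p = 7.17e-05). Atp5e, the epsilon subunit of the catalytic part, had 39.1, 39.9 and 39.7 at day 30, against 88.3, 128 and 99.2 at day 7 (-1.37 ± 0.16, limma adjusted p = 4.07e-05). Ndufa11 (-1.43 ± 0.20), Ndufa3 (-1.35 ± 0.22), Uqcr11 (-1.42 ± 0.18), Uqcr10 (-1.34 ± 0.20), Cox8a (-1.18 ± 0.17), Cox6b1 (-1.16 ± 0.15), Atp5o (-1.17 ± 0.15) and Cox7a2l (-1.04 ± 0.12) fell too.

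Some of the best known subunits did not follow. Complex II showed the range: Sdhb, the iron-sulfur subunit, had 17.2, 19.4 and 20.3 at day 30, against 30.6, 57.2 and 44.3 at day 7 (-1.13 ± 0.20, limma adjusted p = 0.000671). Sdhc and Sdhd, its membrane anchors, had changes of -0.85 ± 0.16 and -0.43 ± 0.13 and passed, Sdhd in 20 of 27 alternatives. Sdha, the flavoprotein with the succinate site, had 109, 103 and 104 at day 30 and 116, 99.8 and 111 at day 7, which overlap (-0.05 ± 0.13), and it passed in no comparison. Ndufs1, the largest core subunit of complex I, had 24.4 to 28.3 at day 30, against 22.3, 14.6 and 22.2 at day 7 (0.42 ± 0.17, limma adjusted p = 0.0661). Atp5b, the catalytic beta subunit of the ATP synthase, had 378, 394 and 360.3 at day 30 and 387, 565 and 503 at day 7 (-0.34 ± 0.18, limma adjusted p = 0.141). The changes of Atp5a1 (-0.37 ± 0.15) and Uqcrc2 (-0.39 ± 0.16) did not pass either.

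Leaving out 1 library at a time gave 55 to 65 lower calls, 53 of the 63 kept theirs without each library, and 25 kept theirs under all 27 alternatives, among them Cox4i1, Cox7a2l, Cox8a, Uqcrq, Uqcr11, Ndufa8, Atp5j2, Atp5e and Sdhb. With day 30 counted as 1 sample, 28 passed and the lone sample is taken to vary like the other groups. Marker sums of several other cell types were lower at day 30 as well. Fibroblast sums were 167 to 173 at day 30 against 556 to 2184 at day 7, and cardiomyocyte sums 27.1 to 28.3 against 87.5 to 220.3. Endothelial sums were 27.8 to 30.3 against 57.4 to 139, and mural cell sums 32.4 to 38.1 against 47.8 to 143. The macrophage sums given above did not overlap either, with day 30 lower. T and NK cell sums overlapped, at 10.6 to 13.96 at day 30, with Cd3g at 0, and 11.3 to 41.2 at day 7, as did neutrophil sums, at 2.40 to 4.06 and 3.47 to 9.49. Among mural markers, Acta2 (2.83 to 3.67 at day 30 against 22.9 to 86.1 at day 7) and Myh11 were lower at day 30. Rgs5, Abcc9, Pdgfrb, Cspg4 and Kcnj8 overlapped between these days. The part of these cell types in the fall was not tested.

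**Figure D4:**
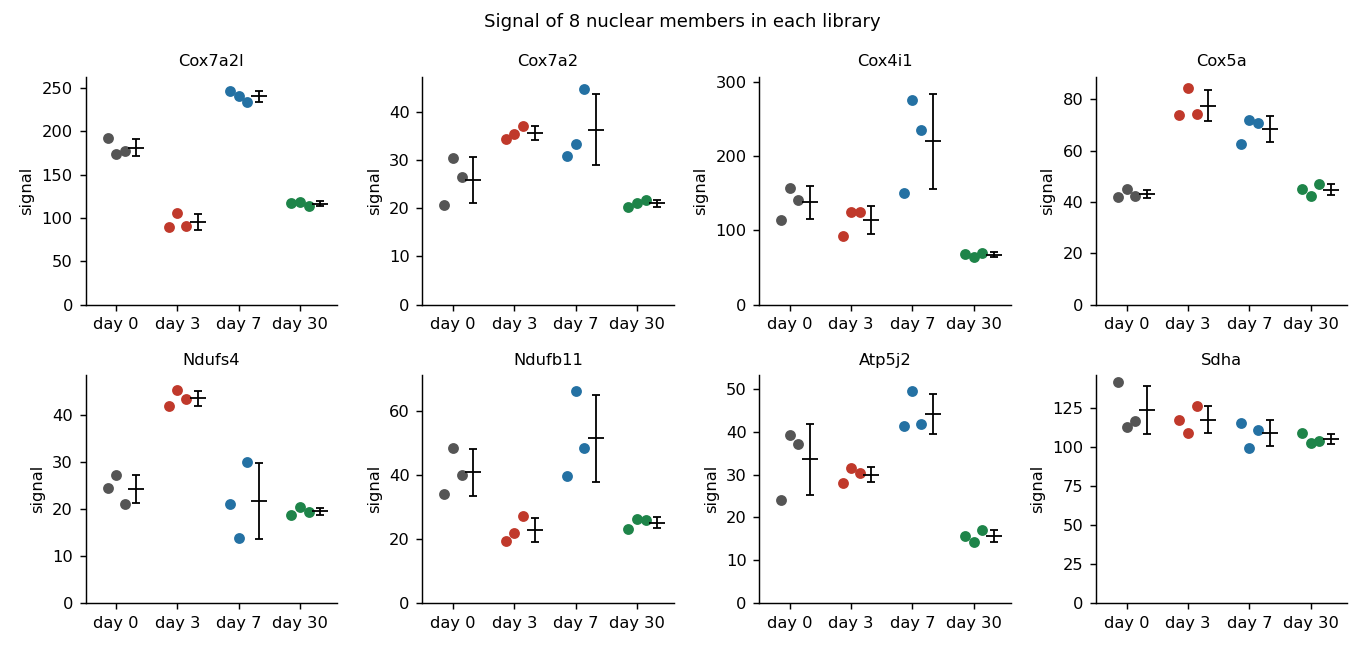
Signal of 8 nuclear members in each library, with the mean and SD of 3 beside the points, by day after cryoinjury. Cox7a2l is lowest at day 3 (89.5 to 106) and Cox4i1 and Atp5j2 at day 30, Cox5a and Ndufs4 are highest at day 3, and Sdha spans 99.8 to 142 over all days.

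Gene length moved with this result. The nuclear members have a median exon length of 1789 bases, the mitochondrially encoded members of 784 and all tested genes with an annotated length of 4317, and shorter genes were more often lower at day 30 than at day 7 in the whole table. Between 500 and 1000 bases, 15 of 18 nuclear members were lower, against 31.8% of all tested genes. Between 1000 and 2000 bases they were 26 of 32 against 33.3%. Between 2000 and 4000 bases, they were 15 of 24 against 24.99%, and over 4000 bases 6 of 11 against 13.4%. With trends on GC content and length removed from each library, 54 nuclear members passed and the nuclear median was -0.61. Of these 54, 48 were among the 63 called without this step.

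**Figure D5:**
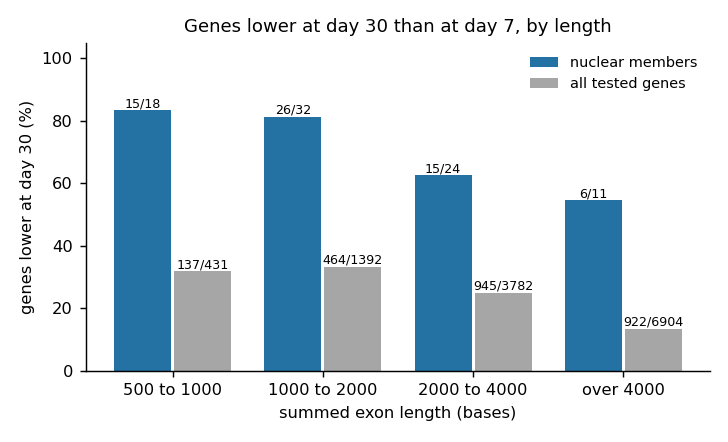
Share of genes lower at day 30 than at day 7 in limma, in percent, for nuclear oxidative phosphorylation genes and all tested genes in 4 bins of exon length, with counts above the bars. The share of nuclear members falls from 83.3% in the shortest bin shown to 54.5% in the longest, and that of all tested genes from 31.8% to 13.4%.

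Against day 0, 26 of 86 nuclear genes were lower and 0 higher at day 30 by limma, with 2.73% lower and 3.45% higher among all tested genes. edgeR and DESeq2 also called 0 higher, and 0 were higher at an unadjusted p under 0.05. The median was -0.51, and 61 of 86 had groups apart with day 30 lower, against 20.3% of all tested genes. Complex IV held 7 of the falls (of 14), complex I subunits 9 (of 36), the ATP synthase 5 (of 15), complex III 3 (of 9), complex II 2 (of 4) and the complex I assembly factors 0 (of 8). Cox6a1, the liver-type isoform of subunit 6a that most tissues use, had 58.4, 62.0 and 56.9 at day 30, against 112, 119.8 and 113 at day 0 (-0.95 ± 0.13, limma adjusted p = 0.000859). Ndufa2, an accessory subunit with a thioredoxin-like fold, had 14.5, 11.7 and 14.8 at day 30, against 24.8, 34.8 and 31.7 at day 0 (-1.09 ± 0.19, limma adjusted p = 0.00407). Cox4i1 (-1.01 ± 0.20), Atp5j2 (-1.02 ± 0.18), Uqcrq (-0.93 ± 0.18), Uqcr11 (-0.88 ± 0.18), Atp5e (-0.81 ± 0.16) and Ndufa4 (-0.82 ± 0.15), a subunit first placed in complex I and later in complex IV, were lower too. Cox7a2l stood between its day 3 and day 0 levels at 118, 119 and 114 (-0.63 ± 0.12).

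The day 30 to day 0 calls depended on which libraries were used, and 6 passed without each library in turn (Cox6a1, Ndufa2, Ndufa4, Ndufb9, Atp5e and Atp5j2). The count was 8, 12 and 15 without the second, the third and the first day 30 library, 10 without the second day 0 library, 42 without the second day 7 library, 45 without both libraries that stood furthest apart and 47 when these groups were fitted alone. With day 30 as 1 sample 0 passed in limma, with 26 lower at an unadjusted p under 0.05. As shares of all reads, before scaling, the nuclear members took 0.317% to 0.324% at day 30 and 0.300% to 0.392% at day 0, which overlap, while the mitochondrial ribosomal RNAs with Gm26924 and Lars2 took 25.5% to 25.9% at day 30 and 30.4% to 49.3% at day 0. With the library totals without these and the mitochondrially encoded genes, 30 nuclear members were lower.

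Over the 4 groups, 67 of 86 nuclear members and 13 of 13 mitochondrially encoded members passed the limma F test, against 63.9% of all tested genes. Of the 67, 48 had their highest mean at day 7 and their lowest at day 30, 11 were highest at day 3 and lowest at day 30, and the other 8 fell into 5 other orders. Of the mitochondrially encoded members, 12 were highest at day 0 and lowest at day 3, and 1, mt-Nd6, was highest at day 0 and lowest at day 7. The smallest adjusted p of the nuclear classes were those of Cox7a2l (1.40e-06), Uqcrq (1.45e-05), Cox6a1 (1.83e-05) and Atp5e (3.35e-05).

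Because most nuclear members moved together from day 7 to day 30, their promoters were read from RefSeq (GRCm38.p6), in windows of 300 bases that begin upstream of the start site and end shortly after it. Of the 87 nuclear members 70 matched a window. Each was searched on both strands for 3 motifs known from genes of the respiratory chain: the NRF1 palindrome, CCGGAAG for ETS factors such as GABP, and AAGATGGC for YY1. NRF1 letters were found in 17 of 70 windows (24.3%), against 4.78% of all 27025 windows, ETS letters in 16 (22.9%), against 9.12%, and YY1 letters in 8 (11.4%), against 2.88%. At least 1 of the 3 motifs was in 36 of 70 windows. It was in 26 of the 45 windows of tested genes with the highest mean at day 7 and the lowest at day 30. It was in 10 of the 24 windows of tested genes with another order. The 27025 windows include genes outside the 14460 measured here and were not matched to the members for GC content. Whether the motifs are particular to these members among measured genes was therefore not tested. Shown are 3 members that fell at day 30, 1 with each motif, and Sdha as a subunit that passed in no comparison. Cox7a2l is shown as a gene that fell at day 3 against day 0 and also at day 30 against day 7. Capitals mark motif letters. Each sequence runs 5′ to 3′ on the minus strand of the genome, where all 5 genes lie.
Ndufa8, complex I, chr2:36049289-36049588, 1 NRF1 match: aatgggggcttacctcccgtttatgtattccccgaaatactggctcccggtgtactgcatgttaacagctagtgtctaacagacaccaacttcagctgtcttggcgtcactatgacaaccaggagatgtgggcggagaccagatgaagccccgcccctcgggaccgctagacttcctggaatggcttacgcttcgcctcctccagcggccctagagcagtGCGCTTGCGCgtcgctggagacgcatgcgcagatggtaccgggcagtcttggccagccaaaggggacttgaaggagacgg
Uqcr11, complex III, chr10:80406772-80407071, 1 ETS match: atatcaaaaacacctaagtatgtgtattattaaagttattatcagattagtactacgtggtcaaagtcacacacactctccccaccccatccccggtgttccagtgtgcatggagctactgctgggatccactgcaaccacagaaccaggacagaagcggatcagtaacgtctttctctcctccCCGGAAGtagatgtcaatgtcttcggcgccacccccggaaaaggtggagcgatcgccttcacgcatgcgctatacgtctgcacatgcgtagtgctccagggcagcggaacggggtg
Atp5j2, ATP synthase, chr5:145191492-145191791, 1 YY1 match: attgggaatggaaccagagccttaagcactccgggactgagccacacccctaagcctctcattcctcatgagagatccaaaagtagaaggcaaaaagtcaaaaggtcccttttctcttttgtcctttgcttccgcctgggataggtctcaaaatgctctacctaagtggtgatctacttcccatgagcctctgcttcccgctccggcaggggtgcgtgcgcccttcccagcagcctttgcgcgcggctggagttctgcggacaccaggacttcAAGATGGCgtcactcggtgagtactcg
Cox7a2l, complex IV, chr17:83514284-83514583, 0 matches: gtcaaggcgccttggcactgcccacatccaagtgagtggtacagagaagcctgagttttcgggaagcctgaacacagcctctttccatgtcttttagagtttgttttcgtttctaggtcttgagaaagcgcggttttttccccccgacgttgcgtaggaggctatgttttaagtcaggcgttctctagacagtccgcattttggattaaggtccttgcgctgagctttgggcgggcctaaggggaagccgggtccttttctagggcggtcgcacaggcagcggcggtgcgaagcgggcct
Sdha, complex II, chr13:74350191-74350490, 3 NRF1 matches: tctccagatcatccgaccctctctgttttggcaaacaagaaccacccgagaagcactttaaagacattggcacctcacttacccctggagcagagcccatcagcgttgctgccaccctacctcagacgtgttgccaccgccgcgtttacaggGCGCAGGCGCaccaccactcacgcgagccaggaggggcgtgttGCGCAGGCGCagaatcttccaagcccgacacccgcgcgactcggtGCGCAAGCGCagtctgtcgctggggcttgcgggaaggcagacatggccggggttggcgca
Sdha holds the NRF1 letters 3 times and passed in no comparison, and Cox7a2l holds none of the 3 motifs in this window. Such a match is a run of letters and was not tested as a site.

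The paired isoforms of complex IV showed the ubiquitous forms in these cells. Cox6a1 had 56.9 to 144 over the 12 libraries and its muscle relative Cox6a2 0.127 to 3.33; Cox7a2 had 20.2 to 44.8 and its muscle relative Cox7a1 0.354 to 3.25. At these levels Cox6a2 and Cox7a1 are near the worth of 3 reads. The ratio of Cox7a2l to Cox7a2 signal was 5.74 to 9.29 at day 0, 2.43 to 3.00 at day 3, 5.22 to 7.98 at day 7 and 5.22 to 5.83 at day 30, so day 3 lay below the 9 other libraries. Cox4i2, Cox7b2, Cox8b, Cox8c, Ndufa4l2 and Atp5g2 were not analysed here. For the subunit c genes of the ATP synthase, Atp5g1 was lower at day 30 than at day 7 (-0.77 ± 0.18) and Atp5g3 was not called (-0.32 ± 0.14).

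Other genes of the pathway were read from 5 lists. Of 27 tested carriers and helpers, 9 were higher and 5 lower at day 3 than at day 0: Cycs, cytochrome c itself, rose to 76.2 ± 11.3 at day 3, against 18.5 ± 3.20 at day 0 (SD, n = 3 each; 1.99 ± 0.17, limma adjusted p = 2.79e-07), and Slc25a3, the mitochondrial phosphate carrier, by 1.01 ± 0.14, while Adck3 (Coq8a), of coenzyme Q synthesis, fell by 1.87 ± 0.37 to near the worth of 3 reads. Of 26 tested genes of the tricarboxylic acid cycle and pyruvate entry, 6 were higher and 6 lower at day 3, with Idh2, mitochondrial isocitrate dehydrogenase, at -1.50 ± 0.17 and Pdk2, an inhibitory kinase of pyruvate dehydrogenase, at -2.17 ± 0.28. Of 25 genes of mitochondrial DNA maintenance, transcription and RNA handling, 3 were higher and 3 lower at day 3: Pnpt1, the mitochondrial polynucleotide phosphorylase, rose by 2.01 ± 0.16, Polg2, the accessory subunit of the mitochondrial DNA polymerase, fell by 1.36 ± 0.33, and Tfam (-0.21 ± 0.26) and Polrmt (-0.31 ± 0.27) did not pass. Of all tested genes, 22.1% were higher, 22.1% lower and 44.2% passed in either direction.

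At day 30 against day 7, 10 of 27 carriers and helpers were lower and 4 higher, 8 of 26 tricarboxylic acid cycle and pyruvate genes were lower and 1 higher, 7 of 37 assembly factors outside the Nduf names were lower and 1 higher, and 1 of 25 genes of mitochondrial DNA and RNA was lower and 2 higher, with 19.9% lower and 19.7% higher among all tested genes. Of 14 transcriptional regulators of respiratory genes, 2 were lower and 6 higher, and the changes of the 14 ran from -0.98 to 0.85. Only factors of the motifs searched above are named here, so the 2 lower ones are not. Gabpa and Gabpb1, the subunits of GABP, were higher (0.78 ± 0.23 and 0.84 ± 0.22), as was Yy1 (0.65 ± 0.16), while Nrf1 (0.17 ± 0.19) did not pass. The difference between the subunits and these lists was not tested. In the other comparisons, higher and lower calls were 6 and 1 (assembly factors) and 3 and 2 (regulators) at day 3 against day 0, beside the shares above. They were 3 and 0, 1 and 1, 2 and 2, 5 and 2, and 1 and 0 at day 7 against day 0, for assembly factors, mitochondrial DNA and RNA, regulators, carriers and helpers, and the tricarboxylic acid cycle, with 11.4% higher and 10.2% lower among all tested genes. They were 0 and 2, 1 and 0, 2 and 0, 0 and 4, and 0 and 0 in the same order at day 30 against day 0, with 3.45% higher and 2.73% lower among all tested genes. They were 8 and 6, 3 and 1, 2 and 4, 7 and 7, and 5 and 3 at day 7 against day 3, with 23.3% higher and 23.5% lower.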

How the data were processed

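The series holds 12 RNA-seq libraries of sorted cells in 4 groups of 3. The authors deposited 1 table of 14460 genes with a normalised signal, which the values show to be whole reads divided by a factor for each library, and its log2 with values below 1 set to 0. Per the submitters' processing notes, cutadapt 1.3, RSEM 1.2.20, edgeR 3.14.0 and GRCm38 were used; their roles and the counting strand are not given in the sources used here. Reads were recovered from the steps of the signal: 100% of values came out whole within 0.02 reads.

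From the signal, log2(signal + 1) was fitted with limma 3.58.1 (R 4.3.3) for genes whose signal averaged 1 or more, with 1 mean per group, 8 residual degrees of freedom and two-sided tests at an adjusted p of 0.05; the pseudocount of 1 understates changes of low genes. edgeR 4.0.16 and DESeq2 1.42.0 were run on the recovered reads as alternatives, beside other pseudocounts, filters and scalings, a replicate block and each library left out. The fit was also run on simulated data, with fewer changed genes than passed here and the same spread in every group. That run does not cover the conditions of these comparisons. Named genes were the 13 mitochondrially encoded members, Sdha to Sdhd and the paired isoforms. Up to 3 rises and 3 falls of each nuclear class per comparison, with a mean signal of at least 10, were named too. So were the 2 smallest p of each class. Cox7c, Ndufs1, Atp5b, Atp5a1, Uqcrc2, Atp5s and the genes of the 5 lists were named after their values were seen. Members and lists were chosen with earlier results of these data known. Exon lengths and positions come from GENCODE M21 and promoter sequences from RefSeq GRCm38.p6.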

Additional observations from a re-analysis of the deposited data

How the results depend on the processing

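Of the alternatives run, none turned a called gene round, and the 4-group count of mitochondrially encoded genes was 13 throughout. Counts below are nuclear or mitochondrially encoded genes called, and "day 7 on 0" stands for day 7 against day 0. With the compared groups fitted alone, nuclear counts were 2 (day 7 on 0), 47 (day 30 on 0) and 11 (day 7 on 3), and the mitochondrial count was 3 (day 7 on 0). With the library totals without mitochondrially encoded genes, Gm26924 and Lars2, nuclear counts were 23 (day 3 on 0), 9 (day 7 on 0) and 42 (day 7 on 3). Without both libraries that stood furthest apart, nuclear counts were 24 (day 3 on 0), 8 (day 7 on 0) and 45 (day 30 on 0), and mitochondrial counts 13 (day 30 on 0) and 12 (day 7 on 3). With day 30 as 1 sample, nuclear counts were 5 (day 7 on 0), 0 (day 30 on 0, 26 at an unadjusted p under 0.05), 15 (day 7 on 3), 28 (day 30 on 7) and 39 (4 groups), and mitochondrial counts 0 (day 30 on 0 and on 7). With GC and length trends removed, chosen after seeing the data, mitochondrial counts were 5 (day 7 on 0), 5 (day 30 on 0), 11 (day 7 on 3) and 1 (day 30 on 7, lower), and DESeq2 gave 4 (day 30 on 0). Changes that did not pass turned sign for Atp5a1 at day 30 on 7 (0.0443 with GC and length trends removed), for Sdha at day 30 on 7 (0.0429 with median centring and 0.0145 with the changed library totals) and for mt-Nd6 at day 7 on 3 (0.0877 with quantile normalisation, 0.0505 with GC and length trends removed and 0.17 without both libraries that stood furthest apart or without the second day 7 library alone; it was -0.72 without the first). The median of the mitochondrially encoded genes at day 3 on 0 was -1.74 without both libraries that stood furthest apart. The cause was not tested.

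With 1 library left out, nuclear counts ran from 7 to 23 (day 3 on 0), 7 to 29 (day 7 on 0), 8 to 42 (day 30 on 0), 13 to 30 (day 7 on 3), 55 to 65 (day 30 on 7) and 59 to 72 (4 groups), and mitochondrial counts from 12 to 13, 4 to 13, 0 to 10, 4 to 8, 0 to 6 and 13 to 13. Deviations of same-numbered libraries had a median r of 0.0049 over 18 pairs, against -0.0069 over 36 pairs of different numbers. The labels state no pairing, and these correlations cannot settle whether the numbers pair the samples. A replicate block gave nuclear counts of 16, 17, 28, 27, 64 and 68, in the same order of comparisons. Mitochondrial counts with the block were 13, 11, 2, 8, 3 and 13. At 3 reads, Cox6a2, Cox7a1 and Cox6b2 are limited by depth.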

Other observations

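Mitochondrial messenger RNA was also read against the other RNAs of the organelle. The summed signal of the 13 subunit genes over that of the mitochondrial ribosomal RNAs was 0.142, 0.127 and 0.107 at day 0, 0.0673, 0.0675 and 0.0618 at day 3, 0.1003, 0.0828 and 0.0834 at day 7, and 0.138, 0.133 and 0.136 at day 30. The day 3 libraries lay below the other 9, and day 30 lay within the range of day 0. The summed signal of the mitochondrial transfer RNA genes, of which this kind of library catches little, was 28.8 to 62.0 at day 0, 22.4 to 27.3 at day 3, 16.4 to 19.4 at day 7 and 31.0 to 33.9 at day 30, so its lowest libraries were those of day 7.

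Single mitochondrial genes kept unequal proportions over time. mt-Co3 signal was 13.1% to 18.7% of mt-Co1 signal at day 0, 8.28% to 9.25% at day 3, 13.1% to 19.99% at day 7 and 12.4% to 13.8% at day 30. mt-Nd3 signal was 8.61% to 10.8% of mt-Nd4 signal at day 0, 3.68% to 5.63% at day 3, 6.65% to 17.6% at day 7 and 4.81% to 5.43% at day 30. Day 3 and day 30 overlapped for mt-Nd3 and did not for mt-Co3.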
